A study of Homo sapiens with 2 samples.

Results

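The genes described here are 10 human genes of the NRF2 antioxidant pathway: NFE2L2, KEAP1, NQO1, HMOX1, GCLC, GCLM, TXNRD1, SRXN1, OSGIN1 and GSR. They were chosen by name, and each matched 1 row of the 19989 genes measured, so all 10 had a value. The levels come from RNA-seq of polyadenylated RNA of hNCI-H716 cells, a line from a colorectal adenocarcinoma of the cecum that serves as a model of the human L-cell, the enteroendocrine cell that secretes GLP-1. The cells were plated on Matrigel and then kept for 48 h in DMEM with 10% fetal bovine serum and penicillin/streptomycin, with either low (5.5 mM) or high (25 mM) glucose, and 1 library was sequenced from each. The study used these libraries to ask which genes the line expresses, and the labels give glucose as the difference between them. Because there was 1 library per concentration, no difference had a replicate check and no p-value was computed. The 95% intervals given below cover counting error only and compare the libraries, not the concentrations.

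NRF2, the protein made from NFE2L2, is a transcription factor that switches on genes against oxidants and reactive chemicals. In unstressed cells KEAP1 holds NRF2 and brings it to the CUL3 ubiquitin ligase for destruction. Oxidants and electrophiles modify cysteines of KEAP1, and NRF2 then accumulates, pairs with a small MAF protein and binds antioxidant response elements in its target genes. This control acts on the NRF2 protein, so the mRNA of NFE2L2 is not a measure of NRF2 activity. The gut lining meets food-borne chemicals and oxidants, and NQO1, the glutathione genes and the thioredoxin genes are among the usual readouts of the pathway there.

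The letters of the element that NRF2 is known to bind were looked for in the promoters, and a match is a description of sequence, since no binding was measured. The core of the antioxidant response element, TGACNNNGC, was searched on both strands in RefSeq promoter windows (GRCh38.p14, 250 bases before to 50 after each gene's start). The search covered 11 such windows for 8 of the 10 genes, since NFE2L2, KEAP1 and TXNRD1 have more than 1 start. No window was available for HMOX1, and GSR was left out of the search. The core was found in 4 of the 11 windows, belonging to KEAP1, GCLM and TXNRD1, and in 13.3% of all 35116 windows. The following stretches are shown because they hold these matches ahead of a start, read in the direction of the gene, with the core in capitals:

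GCLM, chr1:93909440-93909480, minus strand: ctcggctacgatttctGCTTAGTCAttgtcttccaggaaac

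KEAP1, chr19:10502778-10502818, minus strand: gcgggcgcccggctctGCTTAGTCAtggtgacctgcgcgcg

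KEAP1, chr19:10502801-10502841, minus strand: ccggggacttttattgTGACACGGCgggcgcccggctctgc

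TXNRD1, chr12:104286914-104286954, plus strand: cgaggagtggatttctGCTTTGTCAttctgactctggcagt

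TXNRD1, chr12:104215664-104215704, plus strand: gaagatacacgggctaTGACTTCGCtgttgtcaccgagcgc

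The GCLM site and the first KEAP1 site have the same 9 bases, TGACTAAGC when read on the other strand, and lie 25 and 22 bases ahead of their starts. The TXNRD1 site in the window of the second start reads TGACAAAGC on the other strand and lies 93 bases ahead of that start. A further TXNRD1 match, TGACGGAGC, spans the first start. The windows of NFE2L2, NQO1, GCLC, SRXN1 and OSGIN1 held no match, which says only that these letters are not in those 300 bases. The OSGIN1 window, which lies within the span of the gene given below, held an AP-1 site, TGACTCA. This site shares its first 4 letters with the core and was found in 1 of the 11 windows and in 4.95% of all windows. It is shown because OSGIN1 had the log2 ratio of largest size among the 10 genes, and a link between site and ratio was not tested:

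OSGIN1, chr16:83953127-83953165, plus strand: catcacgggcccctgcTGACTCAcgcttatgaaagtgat

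The low and high glucose libraries held 21757839 and 19456560 estimated counts. A count of 0 allows up to 0.138 and 0.154 CPM (the count scaled to the size of its library) in low and high glucose, taken as 3 counts of the total. Of the 12 markers listed for enteroendocrine and epithelial cells, 11 averaged 1 CPM or more. CDH1, which encodes E-cadherin, was the exception at 0.0582 CPM in low and 0.166 CPM in high glucose. Of 14 markers of fibroblasts, endothelium and leukocytes, 5 averaged 1 CPM or more and 5 had no value, among them DCN and PTPRC, while LYZ and LUM were among those with substantial levels. GCG, the proglucagon gene, had the highest mean of the enteroendocrine list, at 1954 and 1808 CPM, and VIL1 and SCG5 had log2 ratios of high over low glucose of 0.61 and -0.56. The summed level of the 14 other markers was 648 CPM in low and 626 CPM in high glucose. The part of other cell types in the results below was not tested.

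The 10 genes covered a wide range of levels. Compared per kb of the longest transcript, the order from highest to lowest mean was NQO1, TXNRD1, GSR, NFE2L2, KEAP1, GCLC, GCLM, SRXN1, OSGIN1 and HMOX1. The mean level was 270 CPM per kb for NQO1, 93.2 for TXNRD1 and 86.0 for GSR, the reductases at the top of the range. It was 41.6 CPM per kb for NFE2L2, 24.4 for KEAP1, 19.4 for GCLC, 11.7 for GCLM and 9.66 for SRXN1. At the bottom were OSGIN1 at 1.66 and HMOX1 at 0.525 CPM per kb. Of the 9 neighbouring pairs in this order, only TXNRD1 and GSR had overlapping 95% Wilson intervals, and only in the low glucose library, where TXNRD1 was 1.05 times GSR. The order was the same when the median transcript length of each gene was used.

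**Figure D1:**
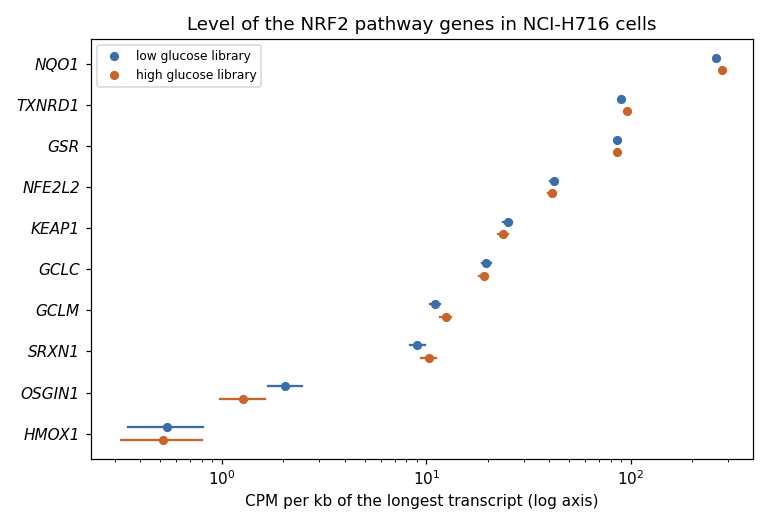
Level of each gene in CPM per kb of its longest transcript (log axis) in the low glucose (blue) and high glucose (orange) library, with 95% Wilson intervals as lines, 1 library each. The genes run from NQO1 at 260 and 279 CPM per kb to HMOX1 at 0.537 and 0.514 CPM per kb, and the paired points lie close together except for OSGIN1.

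Among the regulators, the sensor and the factor it holds were both well expressed and differed little between the libraries. NFE2L2 (ENSG00000116044.15; GRCh38 chromosome 2, 177227595 to 177392697, minus strand) had 120 CPM in low glucose (115 to 124, the 95% Wilson interval) and 118 CPM in high glucose (113 to 122). Its log2 ratio of high over low glucose was -0.03 (95% exact binomial interval -0.11 to 0.06). KEAP1 (ENSG00000079999.13; chromosome 19, 10486120 to 10503741, minus strand) was at 74.1 CPM (70.5 to 77.8) in low and 70.1 CPM (66.5 to 73.9) in high glucose, a log2 ratio of -0.08 (-0.18 to 0.03). The intervals of both genes overlapped between the libraries. In the annotation, 17.6% of the exon bases of NFE2L2 are shared with AC019080.1, a sense-overlapping gene on the same strand. Per kb, NFE2L2 was 1.67 times KEAP1 in low glucose and 1.74 times in high glucose. NFE2L1 and NFE2L3, the paralogs of NFE2L2, were at 53.7 and 3.95 CPM per kb, so NFE2L1 was above NFE2L2 in both libraries and NFE2L3 below it. With median transcript lengths, NFE2L2 over NFE2L1 was 0.273 and NFE2L2 over NFE2L3 was 19.2, against 11.0 in low and 10.1 in high glucose with the longest transcripts. The kelch-like genes KLHL9, KLHL12 and KLHL13, relatives of KEAP1, were at 1.49, 15.2 and 13.7 CPM per kb.

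All 14 listed partners and regulators of NRF2 averaged 1 CPM or more, and 0 of 14 reached a log2 ratio of 0.5 in either direction. Across all 13052 genes at that level, 1.65% were higher and 3.72% lower by this measure in high glucose. The median of the 14 was -0.05, beside -0.01 over all 13052 genes. SQSTM1, which encodes p62, a selective autophagy receptor that can bind KEAP1, had the highest mean of the list. It was at 452 CPM in low and 340 CPM in high glucose, a log2 ratio of -0.41 (-0.46 to -0.37). The counting interval lay below 0 for 5 of the 14 (MAFG, BACH2, SQSTM1, CREBBP and NFE2L1) and above 0 for 1, CUL3, the scaffold of the ligase that KEAP1 serves. Over all 13052 genes it lay below 0 for 15.9% and above 0 for 15.8%. CUL3 was at 105 CPM in low and 117 CPM in high glucose.

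NQO1, which encodes a quinone reductase that uses NAD(P)H, was the most abundant of the 10 genes in CPM as well as per kb. NQO1 (ENSG00000181019.12; chromosome 16, 69706996 to 69726951, minus strand) was at 758 CPM in low glucose (746 to 770) and 814 CPM in high glucose (801 to 827), and ranked 135 of the 19989 genes by mean CPM. The intervals did not overlap, and the high glucose library was higher by a log2 ratio of 0.10 (0.07 to 0.13), or 1.07 times. Of the 500 genes nearest to NQO1 in mean CPM, 54.6% had a smaller ratio in size. Ratios of this size were therefore common at that level. Of the exon bases of NQO1, 17.7% are shared with the antisense gene AC092115.2, and the library kit does not mark strand, so reads of these genes cannot be told apart there. NQO2, its paralog, was at 34.6 and 33.0 CPM, and NQO1 was 75.8 and 85.5 times NQO2 per kb. This multiple was 21.4 with median transcript lengths.

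HMOX1, which encodes the inducible haem oxygenase, stood at the other end. HMOX1 (ENSG00000100292.16; chromosome 22, 35380361 to 35394214, plus strand) stood at 0.979 CPM in low glucose (0.632 to 1.48) and 0.936 CPM in high glucose (0.584 to 1.46), from 21.0 and 18.0 estimated counts. Both intervals lay above the values that a count of 0 allows. The log2 ratio was -0.06, with an interval from -1.06 to 0.91, so at this depth a difference within that interval could not be detected. With a mean of 0.957 CPM, HMOX1 was the only one of the 10 genes below the minimum of 1 CPM used for counts of genes. HMOX2, the constitutive haem oxygenase, was at 82.7 and 89.6 CPM, and exceeded HMOX1 71.7 times in low and 81.3 times in high glucose per kb, and 51.1 times with median transcript lengths. Per kb, NQO1 exceeded HMOX1 484 and 544 times.

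The 13 other genes listed for haem and iron handling all averaged 1 CPM or more, and 0 of 13 reached a log2 ratio of 0.5 in size, against 5.38% of all 13052 genes. Their ratios ran from -0.26 to 0.20 with a median of 0.06. FTL, the ferritin light chain, had the highest mean of the list, at 2190 CPM in low and 1884 CPM in high glucose. The counting interval lay above 0 for 3 of these genes and below 0 for 4, which included both ferritin chains, against 15.8% and 15.9% of all 13052 genes.

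Of the 3 glutathione genes among the 10 (GCLC, GCLM and GSR), the counting interval left out 0 for 1, GCLM, near the 31.7% of all 13052 genes for which it did. GCLC and GCLM encode the catalytic and modifier subunits of glutamate-cysteine ligase, the rate-limiting enzyme of glutathione synthesis. GCLC (ENSG00000001084.12; chromosome 6, 53497341 to 53616970, minus strand) was at 75.0 CPM in low (71.5 to 78.8) and 72.8 CPM in high glucose (69.1 to 76.7), a log2 ratio of -0.04 (-0.15 to 0.06). A lincRNA gene on the same strand shares 6.12% of its exon bases. GCLM (ENSG00000023909.9; chromosome 1, 93885205 to 93909456, minus strand) was at 53.5 CPM in low (50.5 to 56.7) and 60.4 CPM in high glucose (57.0 to 64.0). Its intervals did not overlap, and its log2 ratio was 0.18 (0.06 to 0.29), larger in size than that of 79.4% of the 500 genes nearest in mean CPM. Per kb, the catalytic subunit was 1.79 times the modifier in low and 1.54 times in high glucose.

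GSR, which encodes the reductase that regenerates glutathione with NADPH, was closest to equal of the 10 genes. GSR (ENSG00000104687.13; chromosome 8, 30678061 to 30727999, minus strand) was at 275 CPM in low glucose (268 to 282) and 274 CPM in high glucose (267 to 281). The log2 ratio was -0.004 (-0.06 to 0.05), smaller in size than that of all but 2.6% of the 500 genes nearest in mean CPM.

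Of 27 further glutathione genes listed, 20 averaged 1 CPM or more, with a median log2 ratio of -0.10. Of these 20, 2 were lower by at least 0.5 and 0 were higher, against 3.72% and 1.65% of all 13052 genes. The counting interval lay below 0 for 9 of the 20 and above 0 for 3, against 15.9% and 15.8%. The first of the 2 lower by at least 0.5 was SLC7A11, the cystine transporter, at 81.3 CPM in low and 53.1 CPM in high glucose, a log2 ratio of -0.61 (-0.73 to -0.50). It is also on the list of the ATF4 stress response given below. The second was GSTZ1, a zeta-class glutathione transferase that acts in tyrosine breakdown, at 40.6 and 28.0 CPM, a log2 ratio of -0.54 (-0.69 to -0.38). GSTP1, the pi-class glutathione transferase, had the highest mean of the list, at 284 and 263 CPM. GSS, which completes glutathione after glutamate-cysteine ligase, was at 103 and 107 CPM.

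**Figure D2:**
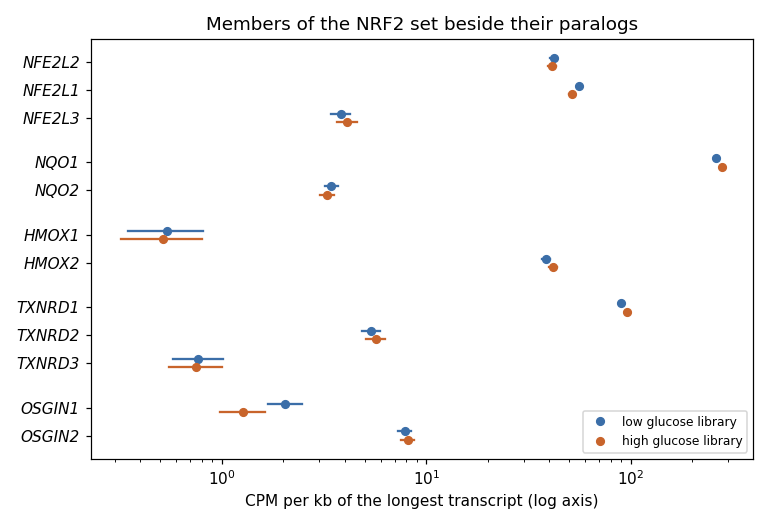
Level in CPM per kb of the longest transcript (log axis) of the NRF2 pathway genes that have listed paralogs in the same enzyme or factor family, in the low glucose (blue) and high glucose (orange) library with 95% Wilson intervals. NQO1 and TXNRD1 are far above their paralogs, while HMOX1 and OSGIN1 are below theirs.

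The thioredoxin genes among the 10, TXNRD1 and SRXN1, were both slightly higher in the high glucose library. The counting interval lay above 0 for both, against 15.8% of all 13052 genes. Of the 500 genes nearest in mean CPM, 54.0% had a smaller ratio in size than TXNRD1 and 77.4% a smaller one than SRXN1. TXNRD1 encodes the cytosolic thioredoxin reductase, a selenoprotein that keeps thioredoxin reduced. TXNRD1 (ENSG00000198431.15; chromosome 12, 104215779 to 104350305, plus strand) stood at 385 CPM in low (377 to 393) and 412 CPM in high glucose (403 to 421), a log2 ratio of 0.10 (0.05 to 0.14). SRXN1 encodes sulfiredoxin, which repairs over-oxidised peroxiredoxins. SRXN1 (ENSG00000271303.1; chromosome 20, 646615 to 653370, minus strand) was at 24.4 CPM in low (22.4 to 26.6) and 27.7 CPM in high glucose (25.5 to 30.1), a log2 ratio of 0.18 (0.01 to 0.36). The libraries' intervals were apart for TXNRD1 and overlapped for SRXN1, whose ratio interval came close to 0. Of the exon bases of SRXN1, 85.0% are shared in the annotation with another protein-coding gene on the same strand, so its count could depend on how reads were divided between them. That other gene had no value among the genes measured, so whether reads were divided is not known. TXNRD1 exceeded its paralogs TXNRD2 (the mitochondrial form) and TXNRD3 by 16.7 and 117 times per kb in low glucose and by 17.0 and 128 times in high glucose. With median transcript lengths these multiples were 32.2 and 246.

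All 14 other genes listed for the thioredoxin and peroxiredoxin system averaged 1 CPM or more, and their median log2 ratio was -0.04. PRDX1, a cytosolic peroxiredoxin, had the highest mean, at 787 CPM in low and 921 CPM in high glucose, a log2 ratio of 0.23 (0.20 to 0.26). Of the 14, TXNIP and SESN2 passed 0.5 in size, against 5.38% of all 13052 genes. The counting interval lay above 0 for 3 and below 0 for 5, against 15.8% and 15.9%. TXNIP, which encodes the thioredoxin-interacting protein, was at 12.7 CPM in low and 89.9 CPM in high glucose. Its level per kb relative to TXN was 0.0138 in low and 0.102 in high glucose, while TXN, thioredoxin itself, was at 272 and 261 CPM. SESN2, which encodes sestrin 2 and stands on the ATF4 list as well, was at 65.2 and 42.5 CPM, a log2 ratio of -0.62.

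OSGIN1, an oxidative stress induced growth inhibitor, was the only one of the 10 genes to reach a log2 ratio of 0.5 in either direction. OSGIN1 (ENSG00000140961.12; chromosome 16, 83948282 to 83966332, plus strand) stood at 4.89 CPM in low glucose (4.03 to 5.90) and 3.04 CPM in high glucose (2.35 to 3.91), from 106 and 59.0 estimated counts. The intervals did not overlap, and low glucose exceeded high glucose 1.61 times, a log2 ratio of -0.69 (-1.17 to -0.22). The ratio was in the lowest 1.78% of the 13052 genes, and larger in size than that of 94.8% of the 500 genes nearest in mean CPM, whose log2 ratios had an SD of 0.34. OSGIN2, its paralog, was at 33.4 and 34.6 CPM, and exceeded OSGIN1 3.83 and 6.38 times per kb, or 1.74 times with median transcript lengths. The annotation places another protein-coding gene on the same strand over 13.9% of the exon bases of OSGIN1.

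**Figure D3:**
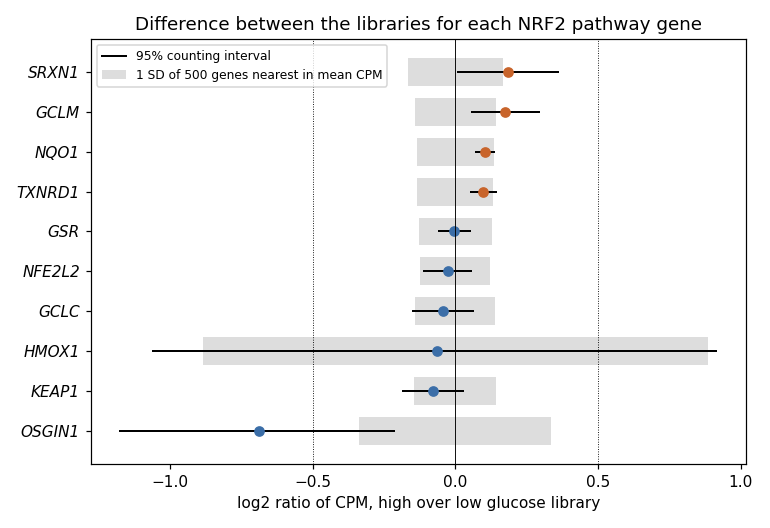
Log2 ratio of CPM, high over low glucose library, for each of the 10 genes (points) with 95% exact binomial counting intervals (black lines), beside 1 SD of the log2 ratios of the 500 genes nearest in mean CPM (grey) and the 0.5 threshold (dotted). OSGIN1 at -0.69 is the only gene past the threshold, and HMOX1 has an interval from -1.06 to 0.91.

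Across the genes of the pathway, 9 of the 10 averaged 1 CPM or more. Of these 9, 1 (OSGIN1) was lower in high glucose by at least 0.5 on the log2 scale and 0 were higher. Across the 13052 genes, 5.38% reached this size in either direction. The counting interval left out 0 for 5 of the 9, above 0 for NQO1, GCLM, TXNRD1 and SRXN1 and below 0 for OSGIN1. It left out 0 for 31.7% of all 13052 genes, 15.8% above and 15.9% below. The median log2 ratio of the 9 was -0.004, beside -0.01 over all genes. The log2 ratios of the 4 higher genes lay within 0.10 to 0.18, while those of GCLC and GSR were -0.04 and -0.004. At a threshold of 0.3, 1 of the 9 was past it, against 14.3% of all 13052 genes, and at a threshold of 1 the count was 0 of 9, against 0.835%. Glucose and any other difference between the cultures cannot be told apart here.

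**Figure D4:**
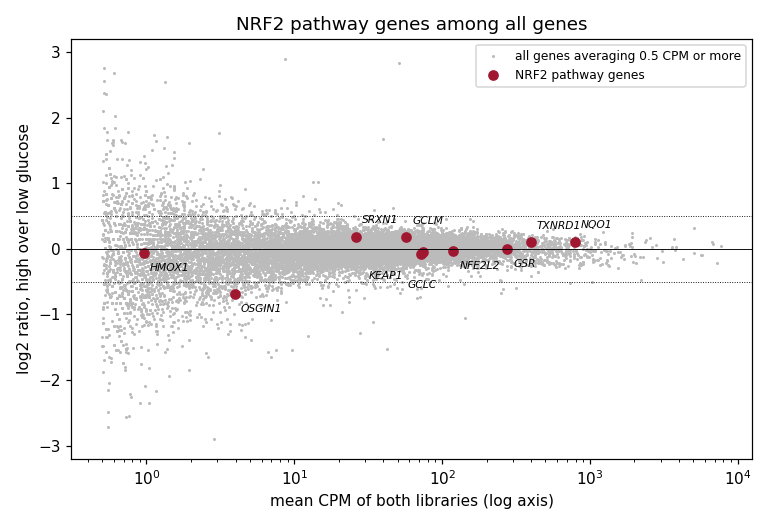
Log2 ratio, high over low glucose, against the mean CPM of both libraries (log axis) for the 14185 genes that averaged 0.5 CPM or more (grey), with the 10 NRF2 pathway genes in red and the 0.5 threshold dotted. Of these genes, 24 lie beyond the axis limit of 3.2. The 10 genes lie within the grey cloud, OSGIN1 below the lower dotted line.

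Further redox genes, of which only some are known NRF2 targets, were described from lists. The 11 genes of NADPH supply, the reducing power that NQO1, GSR and TXNRD1 draw on, had log2 ratios from -0.13 to 0.17 with a median of 0.04, and 0 of 11 reached 0.5 in size, against 5.38% of all 13052 genes. The counting interval lay above 0 for 3 of the 11 and below 0 for 0, against 15.8% and 15.9%. TKT, the transketolase of the pentose phosphate pathway, had the highest mean, at 593 and 579 CPM. Of 23 genes of carbonyl reduction, conjugation and efflux, 20 averaged 1 CPM or more, with a median of 0.01 and 0 past 0.5 in size, against the same 5.38%. The counting interval of 6 of these 20 lay above 0 and that of 3 below 0, against 15.8% and 15.9%. AKR1C3, an aldo-keto reductase, had the highest mean of that list, at 1613 and 1559 CPM, whereas AKR1B10, a relative, was at 0.380 and 0.525 CPM. The aldo-keto reductases of the AKR1C group are close in sequence, so their values may depend in part on how shared reads were divided, which was not measured. Of the 4 genes of superoxide and peroxide removal that averaged 1 CPM or more, 0 reached 0.5 in size, against 5.38% of all 13052 genes. The counting interval lay above 0 for 1 of the 4 and below 0 for 0, against 15.8% and 15.9%. SOD1 was the highest of them at 199 and 198 CPM.

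Other stress responses were set beside these genes. All 17 genes of the ATF4 and CHOP list with a value were lower in high glucose, 13 of them by at least 0.5, against 3.72% of all 13052 genes, with a median log2 ratio of -0.62. The counting interval lay below 0 for all 17, against 15.9% of all genes. CHAC1, which breaks down glutathione, had the log2 ratio of largest size on that list at -1.64, followed by NUPR1 at -1.55, DDIT3 at -1.53 and STC2 at -1.11. ATF4 itself was highest in mean CPM with a log2 ratio of -0.59. The 14 genes of the cytosolic heat shock list had a median of 0.12 with 0 past 0.5 in size, against 5.38% of all genes. Of these 14, 11 had a ratio above 0, and the counting interval lay above 0 for 9 and below 0 for 2, against 15.8% and 15.9%. On this list HSP90AA1 had the highest mean, at 2281 and 2517 CPM. Of the 11 hypoxia genes that averaged 1 CPM or more, 3 (ADM, VEGFA and ANKRD37) were lower by at least 0.5, against the same 3.72%, and the median was -0.25, which was 0.013 among the members that averaged 10 CPM or more. Of these 11, 5 had a counting interval below 0 and 2 had one above, against 15.9% and 15.8% of all genes. HIF1A had the highest mean of the hypoxia list, at 124 and 131 CPM. None of the 10 NRF2 pathway genes stands on these lists, and no test of the difference between lists was made.

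**Figure D5:**
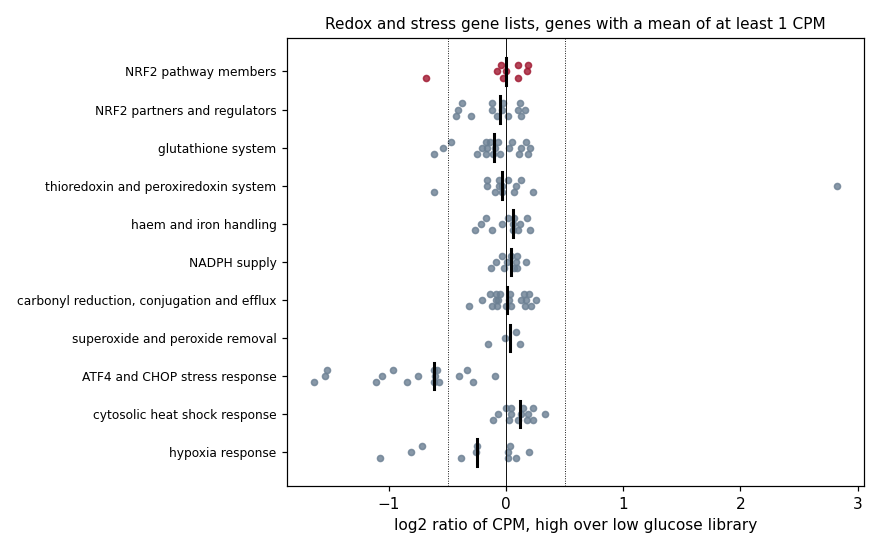
Log2 ratio of CPM, high over low glucose library, of each gene that averaged 1 CPM or more (points) in 11 lists of redox and stress genes, with the list median as a black bar and the 0.5 threshold dotted. The NRF2 pathway genes (red) have a median of -0.004, and the ATF4 and CHOP genes a median of -0.62.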

How the data were processed

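RNA-seq was done on 2 libraries, 1 per glucose concentration. The authors trimmed reads with Trim Galore 0.5.0, aligned them to GRCh38 with STAR 2.6.0, estimated counts per gene with RSEM 1.3.1, removed genes with very low totals and normalised in edgeR, as the methods and the submitters' processing notes state. The deposited table gives CPM, with a small prior added by the authors, and the log2 of the same CPM for each library; it also holds the authors' mean and fold columns, which were not used. The library kit does not mark strand.

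Estimated counts were recovered from the CPM worth of 1 count (0.0460 in low and 0.0514 in high glucose). Below 5 CPM, 70.9% and 71.9% of values were whole within 0.02, so no count model was run. CPM was divided by TMM factors (0.998 and 1.002) computed in Python 3.11.15 (scipy 1.17.1, numpy 2.4.6, pandas 2.3.3). Ratios are of high over low glucose. Since there was 1 library per concentration, genes past a log2 ratio of 0.5, at a mean of at least 1 CPM, were counted without a test. The median chi-square per gene between the libraries was 2.31 at a mean of at least 10 CPM, against 0.455 from counting error alone. The libraries thus differed by more than counting error. Any effect of glucose and any other difference between the cultures both enter this value, and the counting intervals do not cover differences between cultures.

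All 10 genes were named, with, from each list, the gene of highest mean and up to 4 past the threshold; other genes named were chosen after their values were seen. The genes and lists were chosen with earlier results of these data known. Lengths and positions came from GENCODE v29 (GRCh38), close to the release the study used, and promoter windows from RefSeq. The calculations were tested on simulated data.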

Additional observations from a re-analysis of the deposited data

How the results depend on the processing

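The CPM and log2 ratios of the 10 genes were recomputed with library totals only, median-of-ratios size factors and the prior taken off, and the ratios also with a pseudocount of 1 CPM. All of these values stayed within their 95% counting intervals. The number of genes of the pathway past a log2 ratio of 0.5, 1 lower (OSGIN1), was 0 at a minimum mean of 10 CPM, which leaves OSGIN1 out, and 0 at a threshold of 1. The median of the hypoxia list, -0.25, was 0.013 at a minimum mean of 10 CPM, which leaves out its low genes. Across all genes, 702 passed 0.5 in size, 302 did so with a pseudocount of 1 CPM, 5185 without a filter on low values and 77 among those that averaged 10 CPM or more. The share of these that were lower was 69.2%, against 57.6% without the filter. Median transcript lengths raised the level per kb of 9 of the 10 genes, all but SRXN1, and kept their order. Depth limits HMOX1 most, followed by OSGIN1. No paired analysis was possible because there is a lone library for each condition.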
